A study of Mus musculus with 24 samples.

Results

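Replication-dependent histone genes code for the bulk of the histone protein that packs newly copied DNA. They were taken here as the genes whose GENCODE M21 symbol starts with Hist1h, Hist2h, Hist3h or Hist4h, which gave 70 of the 55487 genes in the count tables. They comprise 6 genes of the linker histone H1, 20 of H2A, 19 of H2B, 12 of H3 and 13 of H4. By symbol, 56 of them belong to the Hist1 cluster on chromosome 13, 10 to Hist2 on chromosome 3 and 3 to Hist3 on chromosome 11. Hist4h4 stands alone on chromosome 6. Hist1h2al, at chr13:51202727-51203065, is named for Hist1 but lies apart from the other Hist1 genes. The release annotates 3 of the 70 as pseudogenes (Hist1h2aj, Hist1h2al and Hist3h2bb-ps), and 65 have a single exon block.

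The samples were mouse KH2 embryonic stem cells carrying the TRE_DUX transgene, a doxycycline-inducible copy of Dux, the transcription factor that starts the gene program of the 2-cell embryo. This transgene was present in every group, controls included. Doxycycline (DOX) was given for 16 h or left out. There were 6 lines with and without DOX, each group with 2 libraries: WT and DUXBL-KO (the plain set, 8 libraries), and the pLV2 set of 16 libraries (lines 1 and 2 of WT pLV2, TRIM24-KO pLV2 and TRIM33-KO pLV2). What pLV2 means, how many clones stand behind a line, and whether the 2 libraries of a group came from separate cultures are not stated in the labels, so the p-values measure only the spread between these libraries. Cells grew on gelatin or on growth-arrested feeder fibroblasts, and the labels do not say which library came from which.

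A library held 11784696 to 19136869 gene counts, of which 61147 to 214006 (0.459% to 1.14%) fell on the histone genes. In 8 pLV2 libraries the treatment tag disagrees with the title. Titles were followed, and Zscan4c, a gene of the 2-cell-like state, was at 0.0607 to 1.51 CPM (gene counts per 1000000 of the TMM-scaled library total) in the 12 libraries without DOX in the title and at 189 to 1745 CPM in the 12 with it. Trim33 was at 16.9 to 21.4 CPM in TRIM33-KO and at 85.2 to 140.0 CPM in both WT pLV2 lines. Trim24 was at 120.3 to 136.9 CPM in the line labelled TRIM24-KO, between line 1 (94.5 to 100.2 CPM) and line 2 (165 to 199 CPM), and Duxbl1 in the line labelled DUXBL-KO (0.321 to 11.1 CPM) overlapped WT (0.364 to 8.34 CPM). A lesion that leaves the transcript in place would not show in these totals, and all lines are named by their labels. In the library of TRIM24-KO with DOX, replicate 2, a single gene, CT010467.1, took 30.4% of the gene counts, and in TRIM33-KO with DOX, replicate 2, it took 12.8%, both above the other 22 libraries. Without that gene, 7 members were called for DOX in TRIM24-KO and 28 in TRIM33-KO. The 10 embryonic stem cell markers summed to 4012 to 6025 CPM. With DOX their sums were lower without overlap in each pLV2 line, and overlapped in WT and DUXBL-KO. In line 2 they went from 4693 and 4531 CPM to 4038 and 4012 CPM. In TRIM33-KO they went from 4752 and 4586 CPM to 4080.5 and 4043 CPM, and their part was not tested. The 14 fibroblast markers summed to 16.5 to 42.9 CPM without DOX and to 25.6 to 46.5 CPM with DOX, with Lum and Postn at 0 in most groups. In 5 of 6 lines they were higher with DOX without overlap (from 20.3 and 22.8 to 29.0 and 26.6 CPM in WT, and from 32.6 and 33.2 to 42.5 and 43.2 CPM in TRIM33-KO), and in DUXBL-KO they overlapped (16.5 and 27.2 to 25.6 and 33.1 CPM). They moved with the treatment beside the DOX results of those 5 lines, and their part was not tested in any line.

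Histone messenger RNAs of this class are made in S phase, when DNA is copied, and their level falls when copying stops. Most carry no poly(A) tail and end a few bases past a short stem-loop that is bound by SLBP, the stem-loop binding protein. The U7 small nuclear ribonucleoprotein directs the cut. Libraries made by depleting ribosomal RNA, as here, count such transcripts, which selection for poly(A) would largely miss. Genes of replication-independent variants such as H3f3a lie outside the clusters and give ordinary polyadenylated messages.

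A stem-loop of the form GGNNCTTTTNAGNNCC was present in the annotated transcripts of 44 of the 70 members (62.9%) and of 45 of 55380 other GENCODE genes (0.0813%). By type it was found in 4 of 6 H1, 11 of 20 H2A, 10 of 19 H2B, 8 of 12 H3 and 11 of 13 H4 genes. A missing match says only that these letters are not in the annotated transcript. There were 6 forms, each shown by 1 member with 5 bases on either side, because the forms found in H4 genes were found in no other type. Capitals mark the match, and the sequences are read 5′ to 3′ on the gene's strand of GRCm38.
Hist1h2be: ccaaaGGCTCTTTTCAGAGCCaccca
Hist4h4: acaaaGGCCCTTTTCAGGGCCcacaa
Hist1h1t: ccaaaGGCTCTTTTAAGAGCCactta
Hist1h4i: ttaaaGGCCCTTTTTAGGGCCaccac
Hist1h4b: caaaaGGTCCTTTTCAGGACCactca
Hist2h2ac: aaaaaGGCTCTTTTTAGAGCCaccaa
The first form was carried by 26 members of the types H1, H2A, H2B and H3. The second was carried by 7 members, all H4. The form of Hist1h1t was shared by 6 members (Hist1h1t, 2 H2B and 3 H3 genes), those of Hist1h4i and Hist1h4b by 2 H4 genes each, and Hist2h2ac had the last alone. The gene model ran more than 100 bases past the stem-loop in 22 of the 44, by 2445 bases in Hist4h4, 1861 in Hist1h2be, 1162 in Hist2h3c1, 4884 in Hist1h1d and 185 in Hist1h1t. Counts of such genes can include longer transcripts than the stem-loop form.

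Promoters from RefSeq (GRCm38.p6, the 250 bases before each annotated start) were matched for 62 members. The TATA box TATAAA, on either strand, was in 29 of them (46.8%) against 12.4% of all 32851 promoters in the table. CCAAT was in 51 (82.3%) against 33.8%, with every H1, H2A and H2B promoter holding it but only 3 of 12 H4 promoters. The octamer ATTTGCAT was in 14 (22.6%) against 1.60%, all of them H2A (7 of 18) or H2B (7 of 16). TGATTNAATCA, the form searched for DUX, was in 0 of 62 members and in 0.0304% of all promoters. This form is so rare that 0 among 62 was nearly certain beforehand, so no conclusion is drawn from it. The 3 promoters printed belong to members with the smallest p among the called H2B and H4 genes (Hist1h2ba and Hist1h4i) and to the most abundant H1 gene (Hist1h1a). They are shown 5′ to 3′ on the gene's strand, with these 3 motifs in capitals on whichever strand they lie.
Hist1h2ba, chr13:23934157-23934406 (- strand): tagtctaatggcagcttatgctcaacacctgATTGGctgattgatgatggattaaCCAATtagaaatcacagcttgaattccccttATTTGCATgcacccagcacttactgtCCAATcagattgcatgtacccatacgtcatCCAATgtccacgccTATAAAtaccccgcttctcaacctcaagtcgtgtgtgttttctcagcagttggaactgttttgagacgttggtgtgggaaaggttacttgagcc
Hist1h1a, chr13:23763418-23763667 (+ strand): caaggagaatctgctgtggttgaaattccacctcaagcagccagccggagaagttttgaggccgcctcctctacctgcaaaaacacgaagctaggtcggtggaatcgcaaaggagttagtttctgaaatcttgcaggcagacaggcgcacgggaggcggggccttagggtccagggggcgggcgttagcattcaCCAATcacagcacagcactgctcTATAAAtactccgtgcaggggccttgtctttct
Hist1h4i, chr13:22041363-22041612 (- strand): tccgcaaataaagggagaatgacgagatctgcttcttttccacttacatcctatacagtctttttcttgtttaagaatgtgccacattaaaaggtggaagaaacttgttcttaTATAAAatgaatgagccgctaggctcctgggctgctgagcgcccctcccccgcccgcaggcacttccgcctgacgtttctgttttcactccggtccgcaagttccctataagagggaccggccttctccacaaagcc
Hist1h2ba and Hist1h2aa are divergent neighbours, with 305 bases between their annotated ends (chr13:23934157-23934461), so the Hist1h2ba promoter printed here is also most of the Hist1h2aa promoter. That stretch holds 4 CCAAT boxes and 1 octamer.

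Per kilobase of annotated exon, the highest member of each type, as a mean over the 24 libraries, was Hist1h1a for H1 (765 CPM per kb), Hist1h2ak for H2A (423.6), Hist2h2bb for H2B (596), Hist1h3e for H3 (385.0) and Hist1h4k for H4 (602). The lowest H2B gene was Hist2h2be at 0.571 CPM per kb, and the lowest H3 gene was Hist2h3c2 at 5.85. Long models such as that of Hist1h1d (7425 bases of exon) lower this measure. Some 75-base stretches of the highest members also occur in other genes, members included, which leaves single-gene values uncertain. The share was 0% in Hist1h1a, 27.0% in Hist1h2ak, 49.8% in Hist2h2bb, 59.4% in Hist1h3e and 68.1% in Hist1h4k. Hist2h2bb also overlaps Gm42743 on the same strand. In CPM, the members summed to 6730 to 9684 in the plain set and to 7700 to 11427 in the pLV2 set. Plain and pLV2 libraries were scaled separately, and no difference is drawn between them.

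With DOX the summed histone level on the TMM scale was higher in WT, DUXBL-KO, WT pLV2 line 2 and TRIM33-KO, lower in WT pLV2 line 1, and overlapped in TRIM24-KO, but as a plain share of gene counts it overlapped in DUXBL-KO and line 2 and was lower in TRIM33-KO. In WT it went from 7038 CPM to 8333.5 CPM (18.4% higher), and in DUXBL-KO from 7271 to 8969 CPM (23.3% higher), as means of 2 libraries. Line 2 went from 9636 to 10569 CPM (9.69% higher), TRIM33-KO from 10074 to 10946 CPM (8.65% higher), and line 1 from 10131 to 9556 CPM (5.68% lower). In TRIM24-KO the means were 8037 and 8295 CPM. Scaled by raw gene totals, the changes were 13.2% in WT, 17.2% in DUXBL-KO, -10.8% in line 1, -0.836% in line 2, -22.9% in TRIM24-KO (with overlap) and -15.3% in TRIM33-KO. Those totals include CT010467.1, at 30.4% of gene counts in TRIM24-KO DOX replicate 2 and 12.8% in TRIM33-KO DOX replicate 2. The histone share of TRIM24-KO was 0.8882% and 0.8195% without DOX and 0.8569% and 0.4593% with it, in replicates 1 and 2. That of TRIM33-KO was 1.117% and 1.118% without DOX and 1.074% and 0.8191% with it. The TMM factors went from 1.16 and 1.14 to 1.03 and 1.06 in line 2 and from 1.13 and 1.09 to 0.940 and 0.783 in TRIM33-KO, so the direction in these lines depends on the scaling. In bulk RNA, fewer cells that make a transcript and less transcript per cell cannot be told apart.

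The types did not all follow the total. In WT and DUXBL-KO the sums of each type were 14.0% to 25.9% higher with DOX, with overlap between treatments for H1 in DUXBL-KO. Each same-numbered library was higher with DOX there (1537 to 1836 CPM and 1919 to 2357 CPM), but the labels do not say that these numbers pair libraries. In line 2 and TRIM33-KO the H3 sums were 15.2% and 15.6% higher and the H4 sums 14.3% and 13.8% higher on the TMM scale, whereas by raw gene totals the H3 sums were at 4.19% and -10.0% and the H4 sums at 3.35% and -11.2%. The H1 sums in these lines overlapped, at 0.647% higher in line 2 and -4.75% in TRIM33-KO. The H2B sum of TRIM33-KO, 12.8% higher as a mean, overlapped between treatments as well. In TRIM33-KO DOX replicate 2, CT010467.1 took 12.8% of the gene counts. The negative H3 and H4 values of that line by raw gene totals rest on that library.

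**Figure D1:**
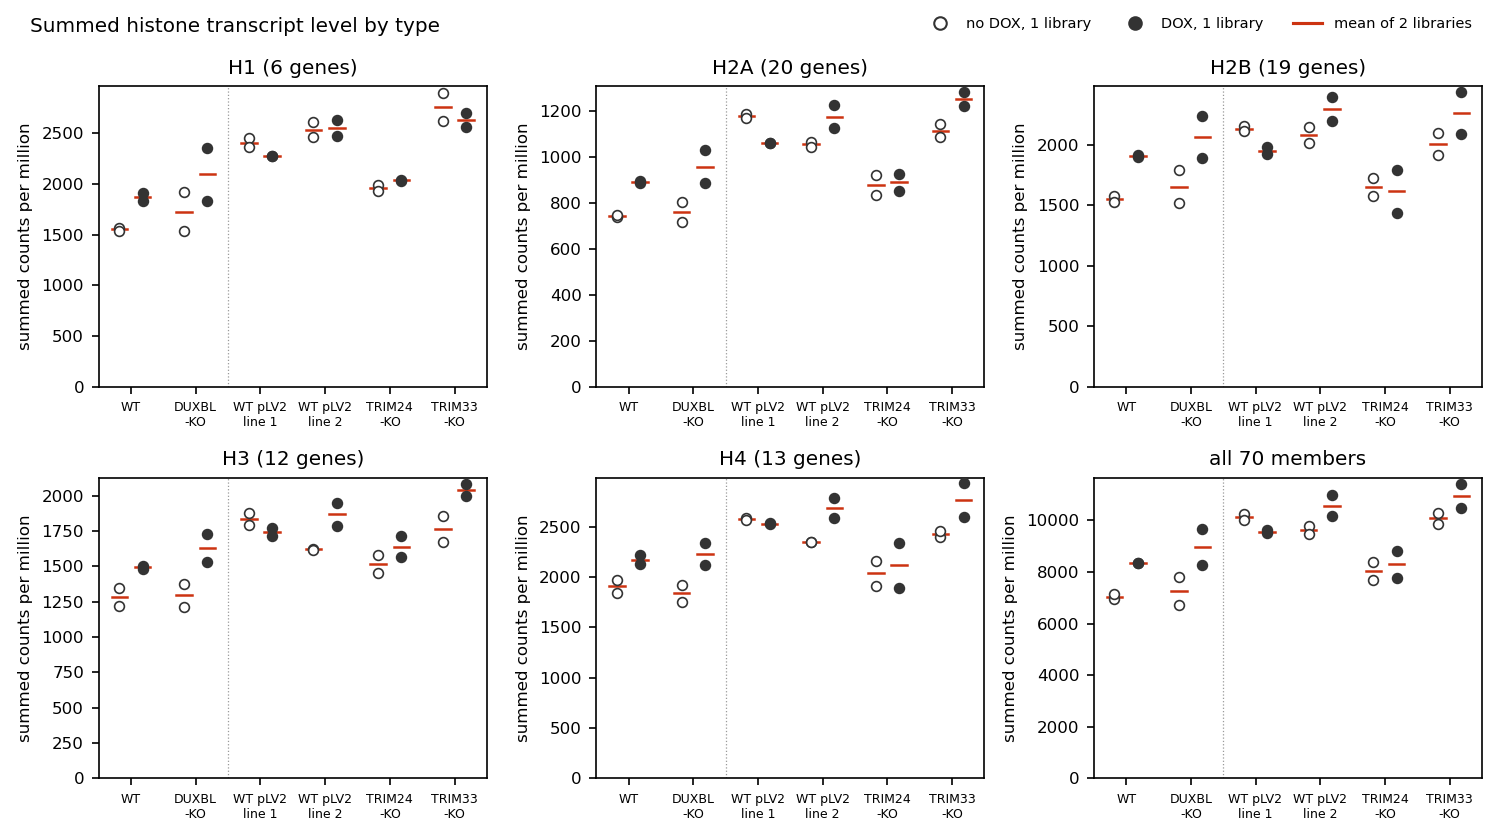
Summed CPM of the histone genes of each type, and of all 70, in each library (open, no DOX; filled, DOX; bar, mean of 2 libraries) of the 6 lines, with the plain set left of the dotted line. On this TMM scale core histone sums of line 2 and TRIM33-KO sit higher with DOX, with overlap for H2B in TRIM33-KO, while their H1 sums overlap. By raw gene totals the total is -0.836% in line 2 and -15.3% in TRIM33-KO. CT010467.1 took 12.8% of the gene counts of TRIM33-KO DOX replicate 2.

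Each gene was tested with edgeR's quasi-likelihood test across 18060 (plain) or 18079 (pLV2) genes, with Benjamini-Hochberg adjustment over all of them, and "called" means an adjusted p under 0.05. All 70 members passed the filter on low counts. In WT, 2 members rose and 0 fell, where 2.82% of all genes tested rose and 0.105% fell. In DUXBL-KO, 4 rose and 0 fell (4.5% and 0.404% of all genes). In WT pLV2 line 1, 3 rose and 1 fell (10% and 6.25%). In line 2, 17 rose and 0 fell (12.7% and 14%). In TRIM24-KO, 7 rose and 0 fell (11.5% and 4.94%). In TRIM33-KO, 20 rose and 5 fell (16.5% and 20.1%). The share of members that rose was thus at or below that of all genes in line 1 and TRIM24-KO, close to it in WT and DUXBL-KO, and above it in line 2 and TRIM33-KO. Line 2 and TRIM33-KO also had the highest Zscan4c with DOX, at 892.9 to 1744.5 CPM. The other lines had 188.8 to 499.7 CPM with DOX, and the part of this difference was not tested. With the replicate number as a block, 7 members rose and 0 fell in WT (4.53% and 0.792% of all genes) and 22 rose and 0 fell in DUXBL-KO (6.9% and 1.92%), so the closeness in the plain lines holds for the fit without the block. With only the compared groups fitted, line 1 had 7 members higher and 16 lower (15.6% and 10.9% of all genes), which turns its balance.

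The median log2 fold change of the 70 members was 0.28 in WT, 0.31 in DUXBL-KO, -0.10 in line 1, 0.14 in line 2, 0.04 in TRIM24-KO and 0.17 in TRIM33-KO. Over all genes tested the medians lay between -0.09 and -0.0028. In WT 67 of 70 fitted values were above 0 although only 2 were called, and in DUXBL-KO 68 of 70 with 4 called. In line 1, 56 of 70 were below 0. In line 2, 12 of 12 H3, 13 of 13 H4 and 19 of 20 H2A genes were above 0, and 5 of 6 H1 genes were below. TRIM33-KO had 12 of 12 H3 and 12 of 13 H4 genes above 0, and again 5 of 6 H1 genes below.

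Several counts rested on single libraries. The count of 2 in WT became 0 without WT no DOX replicate 2, WT DOX replicate 1 or WT DOX replicate 2, and both of its called genes were lost in all 4 fits that left out a library, and the 4 of DUXBL-KO became 0 or 1 without any one of its libraries, as did the 4 of line 1. The 17 of line 2 became 7 without its DOX replicate 1, and the 25 of TRIM33-KO became 12 without its DOX replicate 1. With the RLE scaling of DESeq2 in place of TMM, the calls over all genes moved from 2304 higher and 2534 lower to 2619 and 1774 in line 2, and from 2978 and 3633 to 3499 and 2676 in TRIM33-KO. The members then stood at 23 higher and 0 lower, and at 30 higher and 3 lower.

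**Figure D2:**
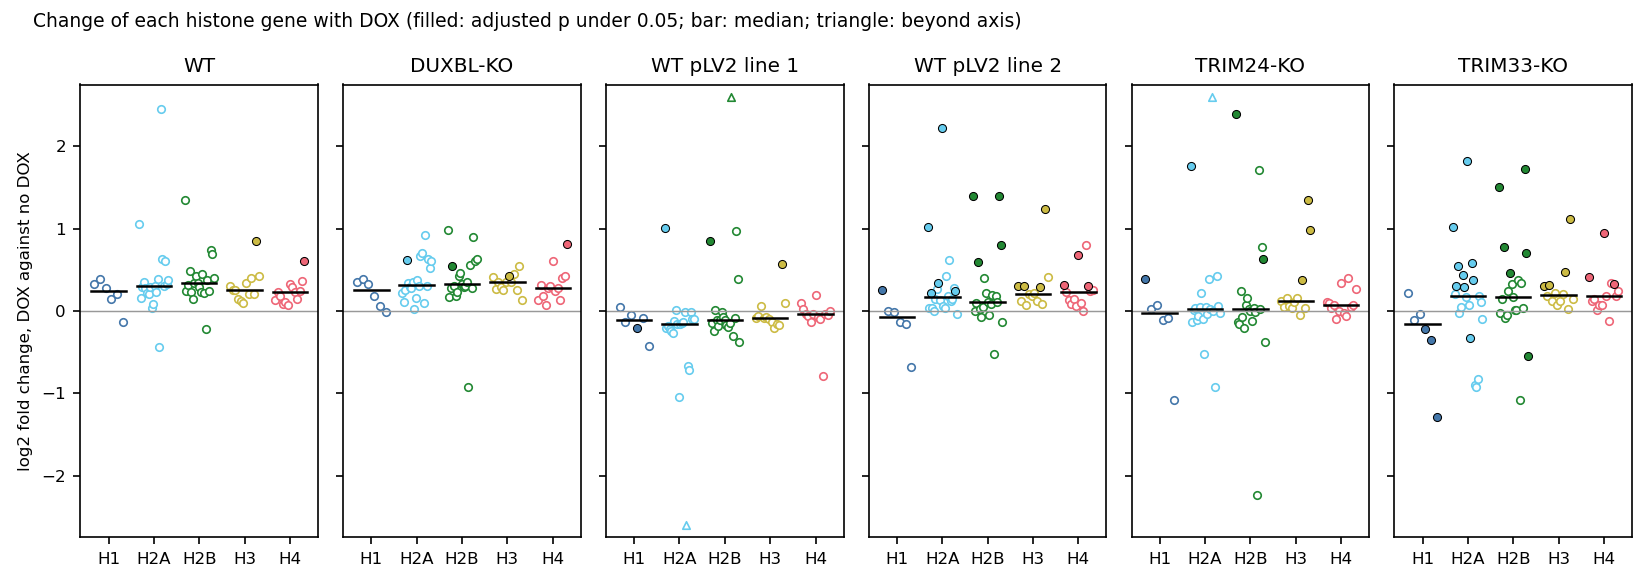
Log2 fold change of each of the 70 histone genes with DOX in the 6 lines, by type (filled, adjusted p under 0.05; bar, median of the type; triangle, beyond the axis). Most points lie above 0 in WT and DUXBL-KO but few are filled, and the H1 medians lie below 0 in line 2 and TRIM33-KO while those of H2A, H2B, H3 and H4 lie above.

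Hist1h2ba and Hist1h2aa code for TH2B and TH2A, histones of the male germ line that are also present in the egg. They rose with DOX in the same 4 lines, all pLV2 lines, although in line 1 both calls were lost in each of the 4 fits that left out a library (adjusted p = 0.0667 to 0.184). Hist1h2ba was at 6.45 and 5.95 CPM in line 2 without DOX and at 16.9 and 15.9 CPM with it, a log2 fold change of 1.40 (SE 0.20, adjusted p = 5.27e-05). In TRIM24-KO it was at 1.32 and 0.812 CPM without DOX and at 5.47 and 5.85 CPM with it (2.40, SE 0.31, adjusted p = 2.08e-05). In TRIM33-KO it went from 4.97 and 5.19 CPM to 18.3 and 10.3 CPM (1.51, SE 0.21, adjusted p = 2.65e-05). Line 1 had the smallest of the called changes, from 2.68 and 3.02 CPM to 4.87 and 5.45 CPM (0.85, SE 0.26, adjusted p = 0.0333). No library with DOX overlapped one without in any of these lines. In WT the values were 1.86 and 3.64 CPM without and 6.48 and 7.77 CPM with DOX, and the fitted change of 1.35 was not called (adjusted p = 0.502). In DUXBL-KO the fitted change was 0.98 (adjusted p = 0.542), and libraries overlapped between treatments. Each same-numbered library was higher with DOX there, but the labels do not say that these numbers pair libraries.

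Hist1h2aa was at 9.11 and 8.40 CPM in line 2 without DOX and at 16.6 and 18.8 CPM with it (1.01, SE 0.24, adjusted p = 0.00409). It went from 5.49 and 5.66 to 11.3 and 11.2 CPM in line 1 (1.01, SE 0.27, adjusted p = 0.0144), and from 7.21 and 8.16 to 16.5 and 14.5 CPM in TRIM33-KO (1.02, SE 0.25, adjusted p = 0.00371). TRIM24-KO started lowest, at 0.661 and 2.96 CPM, and reached 5.63 and 6.99 CPM (1.76, SE 0.35, adjusted p = 0.00169), with an adjusted p = 0.0506 where only the compared groups were fitted. Per kilobase of exon, the mean of Hist1h2aa over all libraries was 22.1 CPM and that of Hist1h2ba 17.1 CPM, against 423.6 for Hist1h2ak and 596 for Hist2h2bb.

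**Figure D3:**
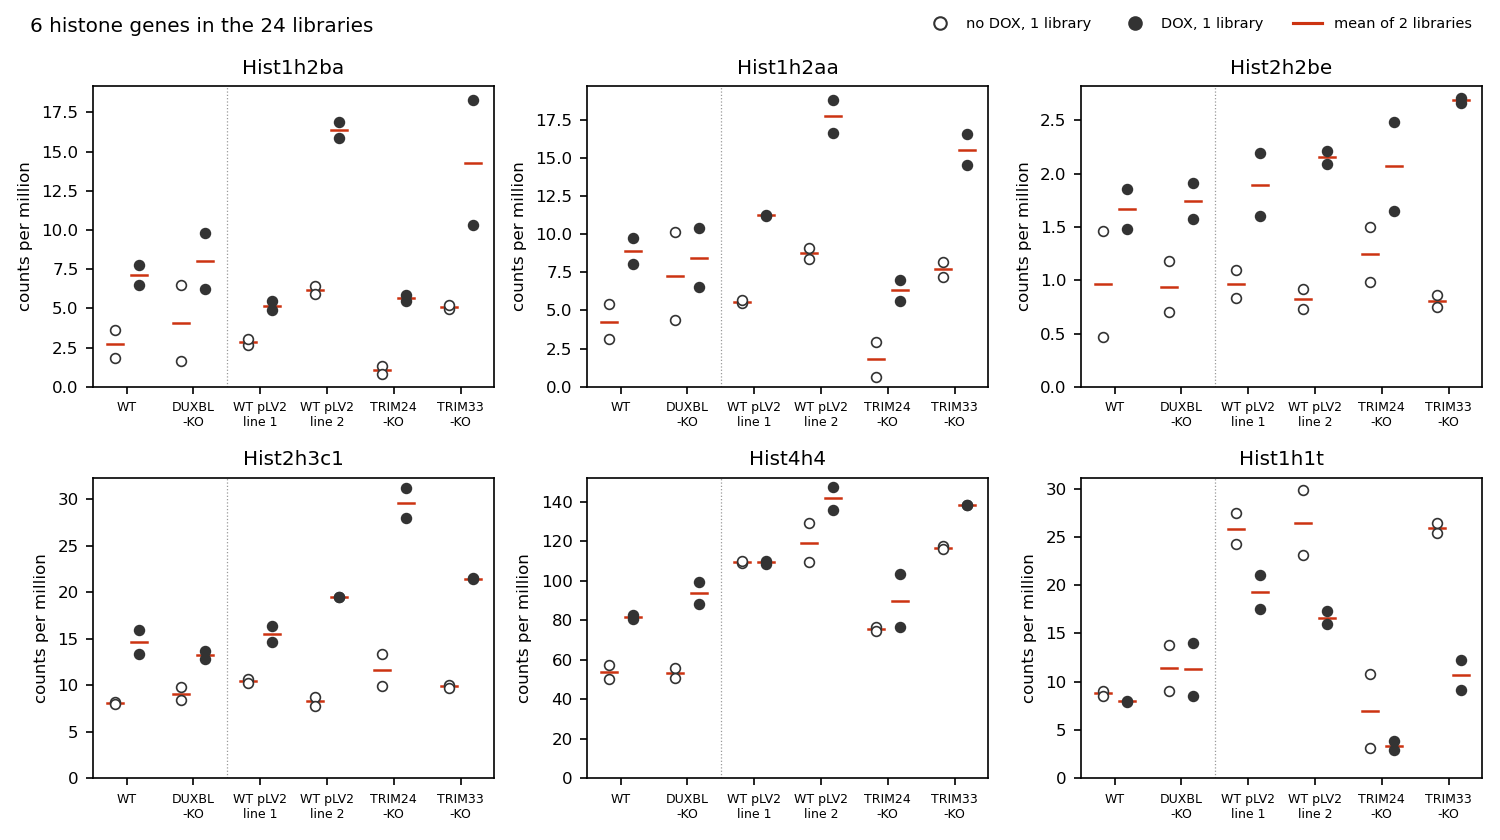
CPM of 6 histone genes in each library (open, no DOX; filled, DOX; bar, mean of 2 libraries) of the 6 lines, with the plain set left of the dotted line. Hist1h2ba and Hist1h2aa rise without overlap in the 4 pLV2 lines, and Hist1h1t is lower with DOX in the WT pLV2 lines and TRIM33-KO, called only in TRIM33-KO.

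Among the other H2B genes, Hist2h2be rose from 0.727 and 0.919 to 2.22 and 2.09 CPM in line 2 (1.39, SE 0.33, adjusted p = 0.00464), and from 0.745 and 0.864 to 2.67 and 2.71 CPM in TRIM33-KO (1.73, SE 0.33, adjusted p = 0.000515). It was at most 2.71 CPM in all 24 libraries. Hist3h2ba, in the small Hist3 cluster, rose from 14.0 and 14.7 to 27.1 and 22.7 CPM in line 2 (0.80, SE 0.14, adjusted p = 0.000358), and also in TRIM24-KO (0.63, adjusted p = 0.0156) and TRIM33-KO (0.70, adjusted p = 0.00113). Its call in TRIM33-KO was lost without DOX replicate 1 (0.39, adjusted p = 0.0716), and that in TRIM24-KO in 3 of 4 fits that left out a library. Hist1h2be rose from 150 and 139.5 to 236 and 201 CPM in line 2 (0.60, SE 0.13, adjusted p = 0.00244), and from 136.5 and 119 to 249 and 189.7 CPM in TRIM33-KO (0.78, adjusted p = 0.000178). It was called in DUXBL-KO as well (0.54, SE 0.10, adjusted p = 0.0269), a call lost in each of the 4 fits that left out a library. Its model overlaps that of Hist1h1e on the same strand, which fell in TRIM33-KO. The abundant Hist1h2bc was called in 0 of the 6 lines, with log2 fold changes between -0.25 and 0.32.

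Among the 20 H2A genes, 8 rose and 1 fell in TRIM33-KO (16.5% and 20.1% of all genes) and 5 rose in line 2 (12.7% of all genes). Hist1h2ad rose in DUXBL-KO (0.62, SE 0.12, adjusted p = 0.0260) and in TRIM33-KO (0.55, adjusted p = 0.00919), with 16.3 and 15.1 CPM in DUXBL-KO without DOX and 24.2 and 23.9 CPM with it. The call in DUXBL-KO was lost in each of the 4 fits that left out one of its libraries, and the sum of this gene with its near-identical copies was not called there (0.27, adjusted p = 0.449). The gene that fell in TRIM33-KO was Hist1h2al, a pseudogene outside the main cluster (-0.33, adjusted p = 0.0125). It was not called with DESeq2 (-0.26, adjusted p = 0.114), with only the compared groups (-0.23), without no DOX replicate 2 (-0.19) or without DOX replicate 2 (-0.16). Hist1h2ak, the most abundant, was called in 0 of the 6 lines, with changes of -0.16 to 0.37. Hist3h2a shared nearly all of its counts with the overlapping Trim17, from which it differed by at most 15 counts in a library, so the 2 cannot be told apart.

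H3 genes showed the most often called member. Hist2h3c1, a gene of the Hist2 cluster, rose in 5 of 6 lines. In line 2 it was at 8.72 and 7.78 CPM without DOX and at 19.5 and 19.5 CPM with it (1.23, SE 0.13, adjusted p = 1.88e-06). In TRIM24-KO it went from 13.3 and 9.86 to 27.9 and 31.1 CPM (1.34, SE 0.13, adjusted p = 4.63e-07), and in TRIM33-KO from 9.99 and 9.75 to 21.5 and 21.4 CPM (1.12, SE 0.13, adjusted p = 3.92e-06). The changes were smaller in line 1 (0.56, adjusted p = 0.00804) and WT (0.85, adjusted p = 0.0433), with the call lost in 2 of 4 fits that left out a library in line 1 and in all 4 in WT, and the 0.54 of DUXBL-KO was not called (adjusted p = 0.156). This gene is uncertain, because 100% of its 75-base stretches also occur in Gm20634, an overlapping gene on the same strand at 229.6 to 442.6 CPM, and how the authors' counting split such reads is not given in the sources used here. Gm20634 itself had log2 fold changes of -0.11 to 0.31 with DOX and was called in 0 of 6 lines.

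Hist1h3i rose in line 2 from 114 and 106 to 142 and 127 CPM (0.29, SE 0.07, adjusted p = 0.00348). It rose in TRIM24-KO from 77.4 and 76.0 to 101 and 98.5 CPM (0.38, adjusted p = 0.000655), and in TRIM33-KO from 109 and 104 to 151 and 146 CPM (0.48, adjusted p = 2.24e-05). Its libraries overlapped between treatments in none of these 3 lines. Of its 75-base stretches 78.3% also occur in other members, and how the counting split such reads is not given in the sources used here. In line 1 its values were 115 and 109 CPM without and 98.6 and 102 CPM with DOX (-0.16, adjusted p = 0.128). Hist1h3g rose in DUXBL-KO only among the 6 tests (0.42, SE 0.08, adjusted p = 0.0337), which does not show that it differs between lines, and the call was lost in each of the 4 fits that left out a library. Hist2h3c2 rose in TRIM24-KO from 4.63 and 3.89 to 7.95 and 9.02 CPM (0.98, SE 0.29, adjusted p = 0.0290), a call lost in each of the 4 fits that left out a TRIM24-KO library (adjusted p = 0.0665 to 0.172). Hist1h3e, the most abundant H3 gene, was called in 0 of 6 lines.

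Hist4h4, the lone H4 gene of chromosome 6, rose in both plain lines. It was at 50.1 and 57.2 CPM in WT without DOX and at 80.6 and 82.6 CPM with it (0.60, SE 0.11, adjusted p = 0.0345). In DUXBL-KO it went from 55.6 and 50.9 to 88.3 and 99.2 CPM (0.82, SE 0.11, adjusted p = 0.00605). The WT call was lost in each of the 4 fits that left out a library (adjusted p = 0.0922 to 0.228) and with only the compared groups (adjusted p = 0.0921), and the DUXBL-KO call without no DOX replicate 2 or DOX replicate 2. The pLV2 lines had fitted changes of -0.00 in line 1 and 0.24 to 0.27 in the rest, none of them called. Hist1h4i rose from 106 and 99.4 to 174 and 155.5 CPM in line 2 (0.68, SE 0.13, adjusted p = 0.000685) and from 105 and 89.3 to 210.2 and 164 CPM in TRIM33-KO (0.95, SE 0.13, adjusted p = 1.87e-05). Hist1h4a rose in the same lines by 0.31 (adjusted p = 0.0398) and 0.41 (adjusted p = 0.00631), with the calls lost in 3 and 2 of the 4 fits that left out a library (down to 0.23 and 0.29). Hist1h4d, at a mean of 406.9 CPM, was called in 0 of 6 lines, with changes between -0.06 and 0.09.

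Of the 6 linker histone genes, 0 rose and 3 fell in TRIM33-KO, where 20.1% of all genes fell. Hist1h1e was at 477 and 545 CPM without DOX and at 391 and 410.1 CPM with it (-0.35, SE 0.07, adjusted p = 0.000958). Hist1h1d went from 486 and 517 to 441 and 424 CPM (-0.22, SE 0.06, adjusted p = 0.0153), which was not called with RLE scaling (-0.14, adjusted p = 0.104), DESeq2 (-0.15, adjusted p = 0.0822) or only the compared groups (-0.12, adjusted p = 0.280), nor without TRIM33-KO no DOX replicate 2 (-0.15) or DOX replicate 2 (-0.12). Hist1h1t, the testis linker histone, went from 25.4 and 26.4 to 9.16 and 12.3 CPM (-1.29, SE 0.30, adjusted p = 0.00280), and was not called without DOX replicate 1 (-1.08, adjusted p = 0.0531). Its fitted change was below 0 in all 6 lines, including -0.42 in line 1, -0.68 in line 2 and -1.08 in TRIM24-KO, none of which was called. Hist1h1d also fell in line 1, from 561.5 and 551 to 480.4 and 481 CPM (-0.21, adjusted p = 0.0340), a call lost in each of the 4 fits that left out a line 1 library.

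Hist1h1a was the linker histone gene that rose. It went up in TRIM24-KO from 346 and 358 to 438 and 487 CPM (0.39, SE 0.09, adjusted p = 0.00657) and in line 2 from 626 and 566 to 767 and 659.5 CPM (0.26, SE 0.09, adjusted p = 0.0475). The call in line 2 was lost without its DOX replicate 1 (0.14, adjusted p = 0.408) or its no DOX replicate 2 (0.22, adjusted p = 0.187), and that in TRIM24-KO without no DOX replicate 1 (0.37) or DOX replicate 2 (0.32). The 0.22 of TRIM33-KO was not called (adjusted p = 0.0736). Hist1h1b and Hist1h1c were called in 0 of 6 lines.

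Counted across lines, Hist2h3c1 rose in 5 of 6, Hist1h2ba and Hist1h2aa in 4, and Hist3h2ba, Hist1h2be and Hist1h3i in 3. A further 12 members rose in 2 lines and 7 in 1, and 40 of the 70 were called in no line. So 25 members rose in at least 1 line, 18 in at least 2 and 6 in at least 3, where the shares of all genes tested in the 6 lines were 19.2%, 13.3% and 9.62%, and 30 were called in either direction in at least 1 line, against 44% of all genes. The fitted change was above 0 in all 6 lines for 13 members. Members whose model runs over 100 bases past the stem-loop and members whose model ends within 100 bases of it gave close counts: 7 of 22 and 8 of 22 rose in at least 1 line, and 10 of the 26 with no stem-loop in the model.

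Near-identical copies carried the widest single-gene values. Hist1h2bq and Hist1h2br share 96.1% of the 75-base stretches of the smaller gene. Hist1h2bq was at 0 in line 1 without DOX in both libraries and at 29.5 and 0 CPM with DOX, while Hist1h2br was at 0 in 1 library and up to 213 CPM in the others. Their sum varied less in line 1, at 213 and 207 CPM without DOX and at 179 and 191 CPM with it. The sum was called in 0 of 6 DOX comparisons, with log2 fold changes of -0.18 to 0.30. The sum of Hist1h2ao and Hist1h2ap, which share 93.1%, rose in TRIM33-KO (0.26, adjusted p = 0.0268). The sum of Hist1h2ad, Hist1h2ah, Hist1h2ai and Hist1h2aj rose in line 2 (0.21, adjusted p = 0.0276) and TRIM33-KO (0.27, adjusted p = 0.00476), and that of Hist1h4m and Hist1h4n rose in the same lines (0.30 and 0.33, adjusted p = 0.0293 and 0.0121). In the other 4 lines none of these 3 sums was called. Values of the single copies are uncertain, and the sums were formed after their values had been seen. Further, 23 members overlap a gene on the other strand, and the strand setting of the count is not given in the sources used here.

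**Figure D4:**
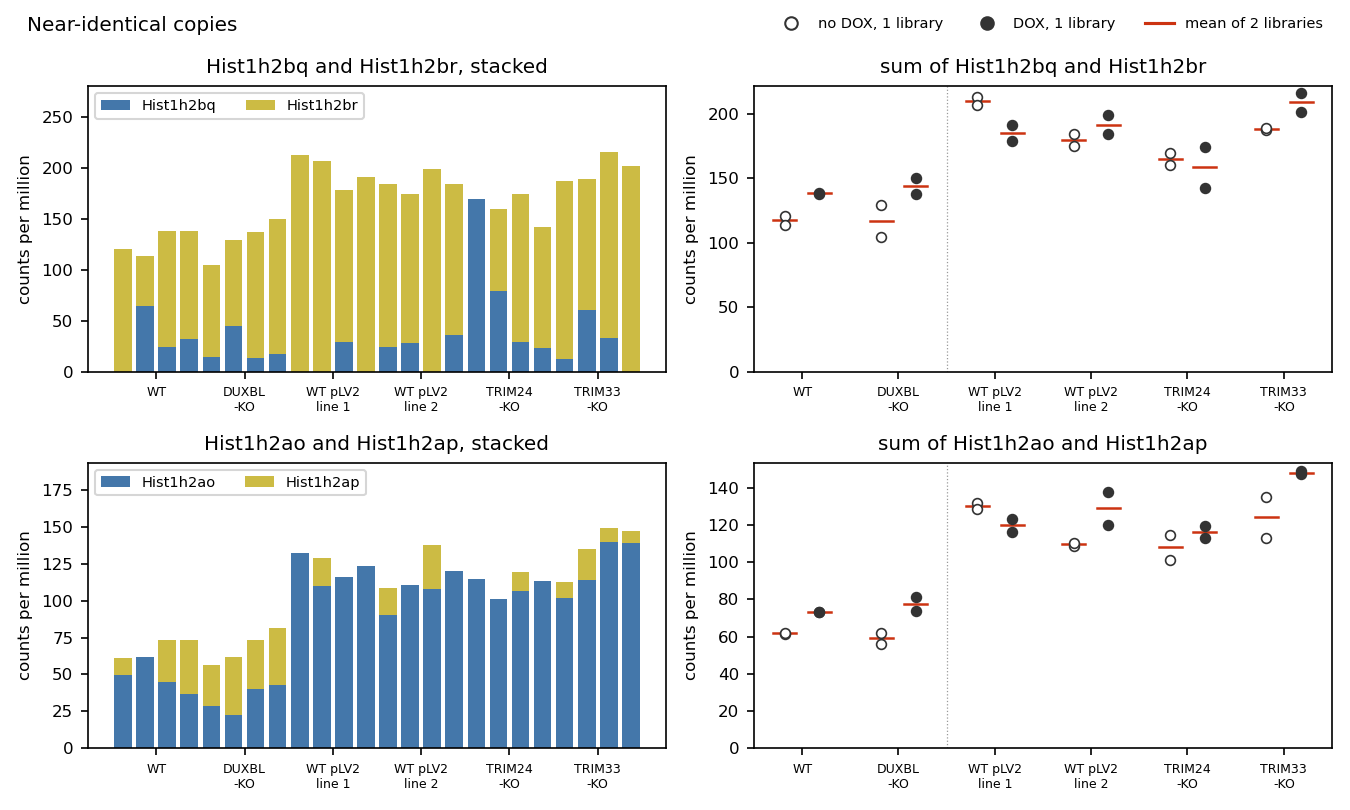
CPM of Hist1h2bq with Hist1h2br and of Hist1h2ao with Hist1h2ap, stacked per library on the left (4 bars per line: no DOX replicates 1 and 2, then DOX replicates 1 and 2) and summed on the right (bar, mean of 2 libraries). The split between the copies varies between replicates. In some groups the sums of replicates lie closer together than the single copies, as for Hist1h2bq with Hist1h2br in TRIM24-KO without DOX (169.4 and 160.2 CPM). In others they do not, as for Hist1h2ao (101.7 and 113.7 CPM) and its sum with Hist1h2ap (112.9 and 135 CPM) in TRIM33-KO without DOX.

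Without DOX, the line labelled TRIM24-KO stood below the WT pLV2 lines. Against the mean of both WT lines, 40 members were lower and 2 higher, where 22.5% of all genes tested were lower and 20.9% higher. The summed level was 8037 CPM against 9884 CPM (18.7% lower), without overlap, and the type sums were 12.3% to 21.5% lower. All types took part, with 4 of 6 H1, 9 of 20 H2A, 15 of 19 H2B, 4 of 12 H3 and 8 of 13 H4 genes lower. Against line 1 alone 43 were lower and against line 2 alone 37. The count of 42 called became 24 without TRIM24-KO no DOX replicate 2. The 14 fibroblast markers summed to 27.1 and 27.9 CPM in TRIM24-KO, to 19.3 and 19.4 CPM in line 1 and to 35.6 and 42.9 CPM in line 2, so TRIM24-KO lay between the lines, and their part was not tested.

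Germ-line members were among those lower. Hist1h1t was at 3.18 and 10.8 CPM in TRIM24-KO and at 23.2 to 29.8 CPM in the 4 WT libraries (-1.90, SE 0.27, adjusted p = 2.50e-05). Hist1h2ba (-1.98, adjusted p = 2.20e-05) and Hist1h2aa (-1.93, adjusted p = 4.66e-05) were also lower, with no overlap. Among the abundant genes, Hist1h1a was at 346 and 358 CPM against 556 to 626 CPM (-0.72, SE 0.08, adjusted p = 2.41e-06), and Hist1h1b at 287.0 and 286 CPM against 405 to 479 CPM (-0.60, adjusted p = 9.08e-07). Hist4h4 (-0.60), Hist3h2ba (-0.79), Hist3h2a (-0.64) and Hist1h3i (-0.53) were lower as well. The members called higher were Hist2h3c1 (0.32, adjusted p = 0.0381), which was 0.083 without TRIM24-KO no DOX replicate 1 and was not called against line 1 alone (0.15), with DESeq2 (adjusted p = 0.0819) or with only the compared groups (adjusted p = 0.0650), and Hist1h2bq, 1 of the near-identical copies above, whose sum with Hist1h2br was lower (-0.24, adjusted p = 0.0118).

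**Figure D5:**
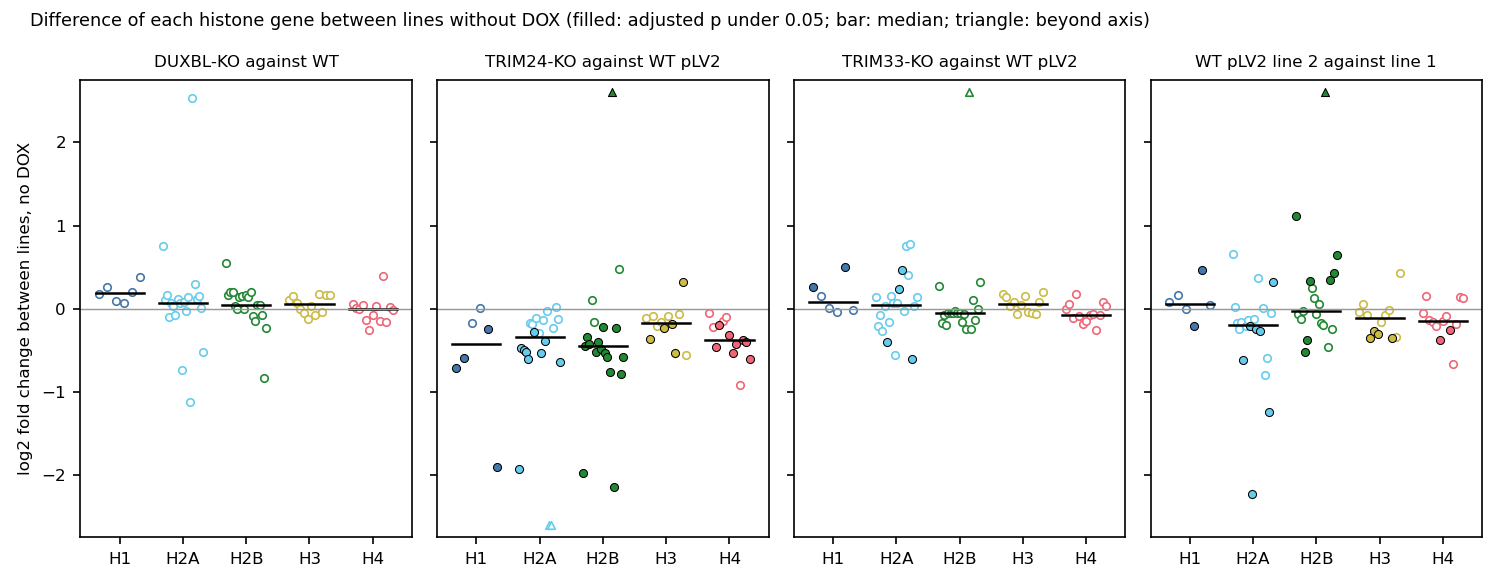
Log2 difference of each histone gene between lines without DOX, by type (filled, adjusted p under 0.05; bar, median of the type; triangle, beyond the axis, drawn at the side it leaves). In TRIM24-KO against WT pLV2 the medians of the 5 types lie below 0 and 40 points are called lower, while DUXBL-KO against WT has no filled point.

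DUXBL-KO against WT had 0 members called by edgeR, where 0% of all genes were higher and 0.0388% lower. An unadjusted p under 0.05 was found for 2 members. DESeq2 called 1, and so did the edgeR fit with the replicate number as a block. TRIM33-KO against both WT pLV2 lines had 4 higher and 2 lower (12.8% and 11.1% of all genes). Hist1h1e was higher, at 477 and 545 CPM against 319 and 297 in line 1 and 438 and 413.5 in line 2 (0.50, SE 0.06, adjusted p = 2.56e-05), as were Hist1h2an (0.46, adjusted p = 0.0168) and Hist1h1a (0.26, adjusted p = 0.0227). Hist2h2ab (-0.61, adjusted p = 0.00804) and Hist1h2af (-0.40, adjusted p = 0.00899) were lower. Against line 2 alone 0 members were called and against line 1 alone 16. Without TRIM33-KO no DOX replicate 1 the count was 14, and without replicate 2 it was 2, with Hist1h2an, Hist1h1a (0.13), Hist2h2ab and Hist1h2af (-0.26) among those lost.

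The 2 WT pLV2 lines themselves differed. Line 2 against line 1 had 8 members higher and 15 lower (18.9% and 19.3% of all genes tested), the latter including 6 H2A and 4 H3 genes. Hist2h2ab was at 3.83 and 4.84 CPM in line 2 and at 11.3 and 9.20 CPM in line 1 (-1.25, SE 0.17, adjusted p = 2.46e-05), and Hist1h2af was lower by the same test (-0.62, adjusted p = 0.000491). Hist1h1e (0.47, adjusted p = 7.32e-05) and Hist1h2ba (1.12, adjusted p = 0.00162) were higher. The count of 23 fell to 6, 10 and 11 without line 2 no DOX replicate 1, line 1 no DOX replicate 2 and line 1 no DOX replicate 1. The comparisons of TRIM24-KO and TRIM33-KO share these WT libraries, so their values are not independent.

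Whether the DOX response differed between lines was tested by an interaction term, which subtracts the reference line's DOX effect from that of the line compared. DUXBL-KO against WT had 0 members called, with 1 at an unadjusted p under 0.05 and 0 by DESeq2 (0% of all genes in both directions). TRIM24-KO against WT pLV2 had 0, with 6 unadjusted and 2 by DESeq2 (0.354% and 0.083% of all genes higher and lower), and line 2 against line 1 had 0, with 21 unadjusted and 2 by DESeq2 (0.183% and 0.0553%). TRIM33-KO against WT pLV2 had 1 higher, Hist1h3i (0.41, SE 0.08, adjusted p = 0.0239), and 0 lower (0.498% and 0.0774%). That call was lost against line 2 alone, where the difference was 0.19, and in 8 of 12 fits that left out a library. So the calls that separate one line from another above, such as the H1 genes of TRIM33-KO, are not shown to differ between lines. Hist4h4, called only in the plain lines, was not tested for a difference between the plain and pLV2 sets.

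Genes that make and cut histone messages moved in both directions, but in lines 1 and 2 of WT pLV2 and in TRIM33-KO more fell than rose. Of 20 genes tested for transcription and 3′ end processing, 0 were called in WT and DUXBL-KO, 1 rose and 3 fell in line 1, 1 rose and 8 fell in line 2, 2 rose and 1 fell in TRIM24-KO, and 4 rose and 10 fell in TRIM33-KO. Among all genes 10%, 12.7%, 11.5% and 16.5% rose and 6.25%, 14%, 4.94% and 20.1% fell in these 4 pLV2 lines, in the same order. Zfp473, which codes for a zinc finger protein of the U7 cutting complex, fell in the 4 pLV2 lines, from 33.1 and 32.1 to 21.2 and 19.3 CPM in line 2 (-0.69, SE 0.08, adjusted p = 6.53e-06) and by 0.75 on the log2 scale in TRIM33-KO. Slbp rose in line 2 (0.25, adjusted p = 0.0489) and TRIM33-KO (0.30, adjusted p = 0.0142). Npat, the coactivator of histone gene transcription, fell in the same lines (-0.25, adjusted p = 0.0413, and -0.28, adjusted p = 0.0173), as did Casp8ap2 (-0.31 and -0.35), which works with it at histone loci.

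Of 31 S phase genes, 1 rose and 4 fell in line 1, 4 rose and 1 fell in line 2, 4 rose and 1 fell in TRIM24-KO, and 8 rose and 6 fell in TRIM33-KO. Read against those shares, the counts that rose were below the share of all genes in line 1, close to it in line 2 and TRIM24-KO and above it in TRIM33-KO, and those that fell were above it in line 1, below it in line 2 and TRIM24-KO and close to it in TRIM33-KO. Pcna, the DNA polymerase clamp, rose in line 2 (0.33), TRIM24-KO (0.33) and TRIM33-KO (0.38), whereas Mcm6 of the replicative helicase and Ccne1 were called in 0 of 6. Of 20 G2 and M genes, 0 were called in WT and DUXBL-KO, 1 rose and 2 fell in line 1, 7 fell in line 2 (14% of all genes), 3 fell in TRIM24-KO (4.94%), and 2 rose and 8 fell in TRIM33-KO (16.5% and 20.1%), with Plk1 at -0.47 in line 2 and -0.66 in TRIM33-KO. Without DOX, in TRIM24-KO against WT pLV2, 10 of the 31 S phase genes were lower and 5 higher, and 9 of the 20 G2 and M genes were lower and 1 higher (22.5% and 20.9% of all genes). These cell cycle values stand beside the histone results, and their part in them was not tested.

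Of 20 histone chaperones, Asf1b, which carries H3 and H4 to the replication fork, rose in the 4 pLV2 lines (0.32 in line 1, 0.38 in line 2, 0.48 in TRIM24-KO and 0.33 in TRIM33-KO), and in all 1 rose in line 1, 2 rose and 1 fell in line 2, 2 rose in TRIM24-KO and 6 rose and 2 fell in TRIM33-KO, with 0 called in WT and DUXBL-KO. Of all genes 10%, 12.7%, 11.5% and 16.5% rose in these pLV2 lines, so TRIM33-KO alone lay above its share. Of the replication-independent histone genes, 11 were tested. In line 1, 2 rose, in line 2, 1 rose and 3 fell, in TRIM24-KO, 2 rose, and in TRIM33-KO, 3 rose and 3 fell. In WT and DUXBL-KO 0 were called. Of all genes, 14% fell in line 2 and 20.1% in TRIM33-KO, beside the shares that rose given above. H1fx, a linker histone, rose in the 4 pLV2 lines, from 16.7 and 19.1 to 27.3 and 28.4 CPM in line 2 (0.64, SE 0.10, adjusted p = 0.000123). H1f0, the linker histone of resting and differentiated cells, fell in line 2 (-0.69) and TRIM33-KO (-0.81). H3f3a and H3f3b, which code for the replacement form of H3, were called in 0 of 6 lines, with changes between -0.04 and 0.19.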

How the data were processed

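RNA-seq of 24 libraries was used as deposited. The authors deposited raw counts per gene and per repeat subfamily, as whole numbers per the file headers. Libraries came from a directional kit after ribosomal RNA depletion, read as 75-base pairs, per the labels' protocols. The submitters' processing notes name bcl2fastq 2.20.0, cutadapt 1.18, STAR 2.7.6a and mm10. The counting tool, its annotation, its strand setting and how it split reads with more than 1 match are not given in the sources used here. Of 55487 gene IDs, 54349 matched GENCODE M21 with their version, 792 without it, and 346 did not match.

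Gene counts were fitted in the plain and pLV2 sets separately with edgeR 4.0.16 in R 4.3.3 (filterByExpr by group, TMM factors, glmQLFit and glmQLFTest, 2-sided, 1 mean per group), and p-values were adjusted by Benjamini-Hochberg over all genes tested in each of 14 comparisons, with a threshold of 0.05. Fold changes are log2, CPM values use TMM-scaled gene totals, and SE is the fold change over the root of F. The biological coefficient of variation was 17.8% in the plain and 8.55% in the pLV2 set. Scripts were tested on simulated data. The alternatives were RLE scaling, no filter, library sizes with repeats, leaving out CT010467.1, a replicate block, only the compared groups, each WT line alone, each library left out, DESeq2 1.42.0 and, added after seeing the data, near-identical copies summed (at least 80% of the smaller gene's 75-base stretches shared).

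Named members were up to 5 rising and 5 falling by smallest p in each DOX comparison, up to 3 in each other comparison, the highest by mean CPM in each type, and a fixed list. The members and lists were chosen with earlier results of these data known. Of the 23 listed processing and transcription genes, 20 were tested, and 11 of 12 replication-independent histones. Promoter sequences are from RefSeq (GRCm38.p6), and stem-loops were read from GENCODE transcripts. The S phase counts of WT and DUXBL-KO are not reported here. Labels do not say that replicate numbers pair libraries. Deviations of same-numbered libraries from their group means correlated by 0.255 to 0.549 over the 6 group pairs of the plain set, where blocked counts are therefore given beside the others, and by -0.0467 to 0.195 in the pLV2 set.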

Additional observations from a re-analysis of the deposited data

Results flagged for a closer look

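The change of Hist1h3i with DOX was called different between TRIM33-KO and the mean of the WT pLV2 lines, by the test of the difference itself. The DOX effect in TRIM33-KO exceeded the mean effect of both WT lines by 0.41 on the log2 scale (edgeR, adjusted p = 0.0239). The fitted effects were 0.48 in TRIM33-KO, 0.29 in line 2 and -0.16 in line 1. Of the 75-base stretches of Hist1h3i 78.3% also occur in other members, so its single-gene value is uncertain. Against line 2 alone the difference was 0.19 and was not called, and in 8 of 12 fits that left out a library the call was lost (adjusted p = 0.0538 to 0.205). In the edgeR fit without a block it was the 1 member of 70 past the threshold in the 4 tests of this kind, while DESeq2 called 2 members in each of the 3 pLV2 tests.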

How the results depend on the processing

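The counts of histone genes called moved by over 1.5 times in the following settings. Without a filter on low counts they were 9 for DOX in WT, 19 in DUXBL-KO, 7 in line 1, 28 in line 2 and 14 in TRIM24-KO. Between lines without DOX they were then 3 for DUXBL-KO against WT and 14 for TRIM33-KO, and for the interactions 2 (DUXBL-KO), 4 (TRIM24-KO), 7 (TRIM33-KO) and 5 (line 2 against line 1). With only the compared groups fitted, DOX gave 0 in WT, 23 in line 1 and 40 in TRIM33-KO. DESeq2 gave 7 for DOX in DUXBL-KO, 1 for DUXBL-KO against WT, and 2 for each of the 3 pLV2 interactions. RLE scaling gave 1 for the interaction of line 2. Against line 1 alone the counts were 16 for TRIM33-KO without DOX and 1 and 4 for the interactions of TRIM24-KO and TRIM33-KO. Against line 2 alone TRIM33-KO had 0 without DOX and 0 for its interaction.

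A fit with the replicate number as a block gave 7 for DOX in WT, 22 in DUXBL-KO, 1 for DUXBL-KO against WT and 1 for the interaction of line 2 with line 1. All 72 named calls stayed past the threshold under that block.

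Leaving out each library in turn gave 0 to 2 for DOX in WT, 0 to 1 in DUXBL-KO, 0 to 1 in line 1, 7 to 18 in line 2, 6 to 9 in TRIM24-KO and 12 to 30 in TRIM33-KO. Without DOX it gave 0 for DUXBL-KO, 24 to 39 for TRIM24-KO, 2 to 14 for TRIM33-KO and 6 to 17 for line 2 against line 1. The interactions gave 0 for DUXBL-KO, 0 to 2 for TRIM24-KO, 0 to 1 for TRIM33-KO and 0 to 1 for line 2. Where a group is left with 1 library, that library is assumed to vary like the others.

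The log2 ratio of the summed levels moved by more than the spread between replicates in these cases. With raw gene totals, for DOX in WT it was 0.18 (total), 0.20 (H1), 0.20 (H2A), 0.23 (H2B), 0.12 (H4). For DOX in WT pLV2 line 1 it was -0.16 (total), -0.16 (H1), -0.23 (H2A), -0.21 (H2B), -0.16 (H3), -0.11 (H4). For DOX in WT pLV2 line 2 it was -0.012 (total), -0.14 (H1), 0.0087 (H2A), -0.0036 (H2B), 0.059 (H3), 0.048 (H4). For DOX in TRIM24-KO it was -0.38 (total), -0.38 (H1), -0.41 (H2A), -0.44 (H2B), -0.31 (H3), -0.35 (H4). For DOX in TRIM33-KO it was -0.24 (total), -0.43 (H1), -0.20 (H2A), -0.18 (H2B), -0.15 (H3), -0.17 (H4). The raw totals behind these ratios include CT010467.1, at 30.4% of gene counts in TRIM24-KO DOX replicate 2 and 12.8% in TRIM33-KO DOX replicate 2. For TRIM24-KO against WT pLV2, no DOX the ratio was -0.36 (total), -0.40 (H1). For WT pLV2 line 2 against line 1, no DOX it was 0.035 (total), 0.18 (H1), -0.052 (H2A), 0.069 (H2B), -0.073 (H3), -0.026 (H4). With RLE scaling, for DOX in WT it was 0.28 (H2A). For DOX in WT pLV2 line 1 it was -0.14 (H2A), -0.015 (H4). For DOX in WT pLV2 line 2 it was 0.25 (H4). For DOX in TRIM33-KO it was 0.19 (total), 0.24 (H2A). Without CT010467.1, for DOX in WT pLV2 line 1 it was -0.053 (total), -0.052 (H1), -0.12 (H2A), -0.10 (H2B), 0.0047 (H4). For DOX in TRIM24-KO it was 0.026 (H1). For TRIM24-KO against WT pLV2, no DOX it was -0.30 (H1). For TRIM33-KO against WT pLV2, no DOX it was 0.0010 (H4). For WT pLV2 line 2 against line 1, no DOX it was -0.042 (total), -0.13 (H2A), -0.10 (H4).

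Of 72 named calls, 33 stayed past the threshold in every alternative run. Only 2 changed sign: Hist1h2bq in TRIM24-KO without DOX was -0.24 with copies summed, which follows from the sum, and Hist2h2ab in TRIM33-KO without DOX was 0.016 against line 2 alone, where the cause was not tested. The causes of the moved counts were not tested. Depth limits the scarcest members: Hist1h2aj had at most 16 counts in a library and Hist2h2be at most 35.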
